A study of Mus musculus with 6 samples.

Results

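Retinoid, steroid and aldehyde oxidoreductases are the enzymes that add electrons to, or take them from, vitamin A, steroid hormones, fatty aldehydes and foreign compounds. They were examined in newborn mouse epidermis as every gene whose symbol starts with Adh, Aldh, Akr, Rdh, Dhrs, Hsd11b, Hsd17b, Hsd3b or Cyp followed at once by a digit. The rule leaves out 5 genes by name (Aldh1l2, Aldh18a1, Hsd17b7, Cyp51 and Cyp4f39). It gave 61 genes of the 12894 in the deposited table. Of these, 16 are the Adh and Rdh genes with Dhrs3 and Dhrs9, and 2 are aldehyde dehydrogenases of the Aldh1a group. A further 1 breaks down retinoic acid, 9 are named for steroids or sterols, and 33 act on other aldehydes, fatty acids or foreign compounds. The 16 are grouped because their families interconvert retinol and retinal, although Adh5 is known mainly for other substrates and Adh6a and Adh6b are less studied. No member of the Hsd11b or Hsd3b families was among them.

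Bulk RNA sequencing was done on epidermis separated from dermis of C57BL/6 mice at postnatal day 0. Of the 3 control animals, control 1 was of genotype Wild type and controls 2 and 3 were labelled Heterogenous, a word whose meaning the labels do not explain. The 3 other animals were labelled Hnrnpu knockout, made by loxP-cre recombination. Hnrnpu encodes an RNA- and chromatin-binding protein of the cell nucleus. The sources used here do not give the Cre driver, the floxed exons or the number of litters. Each title carries its own number, read as an animal number, so a group had n = 3. Nothing else states that the samples were separate cultures or litters, and p-values measure the spread between these 3 samples a group.

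Each value is a read count per gene after normalization by the authors, and the estimated depth was 6460000 to 9120000 assigned reads a library. The targeted gene did not check the labels: Hnrnpu stood at 1450.3, 1318 and 1159.9 in the 3 control libraries and at 1565, 1342 and 1036 in those labelled knockout, in the order of their numbers, a log2 change of −0.01 ± 0.20 (SE). Gene-level values do not show whether the deleted part was read, so 'control' and 'knockout' are used below as labels. Xist, the X-inactivation RNA of female cells, had 0, 0.885 and 3.27 in the controls and 1.87, 5656 and 4758 in knockouts 1 to 3, so knockouts 2 and 3 stood apart from the other 4 libraries in this sign of sex. Its part in the results was not tested, and counts with knockout 1 as the sole knockout are given below. Keratinocyte markers were present throughout, with Krt1 between 199681 and 352515 normalized counts in the 6 libraries.

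Cells handle vitamin A in steps. Alcohol dehydrogenases (Adh) and short-chain dehydrogenases (Rdh, Dhrs) interconvert retinol and retinaldehyde, retinaldehyde dehydrogenases (Aldh1a) make retinoic acid from it without a way back, and cytochromes P450 of the Cyp26 family hydroxylate retinoic acid for removal. In skin, retinoic acid bound to nuclear receptors shapes keratinocyte growth and cornification. The same enzyme families also act on steroids and on fatty alcohols and aldehydes of the epidermal lipid barrier, and many members accept more than 1 kind of substrate.

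Changes are given as log2 differences of normalized counts + 1, knockout minus control, with the moderated SE of a limma fit to all genes and p-values adjusted over all genes (Benjamini-Hochberg). All 61 members passed the filter on low values. Between the groups, 37 of 61 changed past an adjusted p of 0.05 (60.7%), beside 33.6% of all 12872 genes tested. Of these, 11 were higher in the libraries labelled knockout (18.0% of members, beside 17.7% of all genes) and 26 were lower (42.6%, beside 15.9% of all genes). The share of members that were higher was thus near that of all genes, while the share that were lower was above it. The median log2 change of the 61 members was −0.64, and that of all genes tested was −0.02. A change of at least 2-fold past the threshold was seen in 8 members upward and 22 downward. Of all 12872 genes tested, 1550 did so upward and 1517 downward. All 37 called members, and 5 others, had groups whose values did not overlap. This was not counted over all genes, so it adds nothing to the shares above.

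Members at or above the median level of all genes were also set beside all genes at or above it, without closer matching by level. Members below it were not compared in this way. Of the 26 members at or above the median level of all genes, 15 were called (57.7%), 4 higher and 11 lower. At those levels 38.0% of all 6436 genes were called, with more of them higher (1465) than lower (980). Setting all library totals equal, in place of the deposited scaling, moved the median of all genes to −0.36 and that of the members to −0.97. It gave 9 members higher and 33 lower, beside 1440 genes higher and 3065 lower in the whole table, where the deposited scaling gave 2279 and 2049. Leaving out 1 library at a time gave 8 to 12 members higher and 19 to 26 lower. With knockout 1 as the sole library against the 3 controls the counts were 5 higher and 24 lower. With the Wild type control 1 as the sole control they were 3 higher and 4 lower, beside 248 and 53 of all genes.

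**Figure D1:**
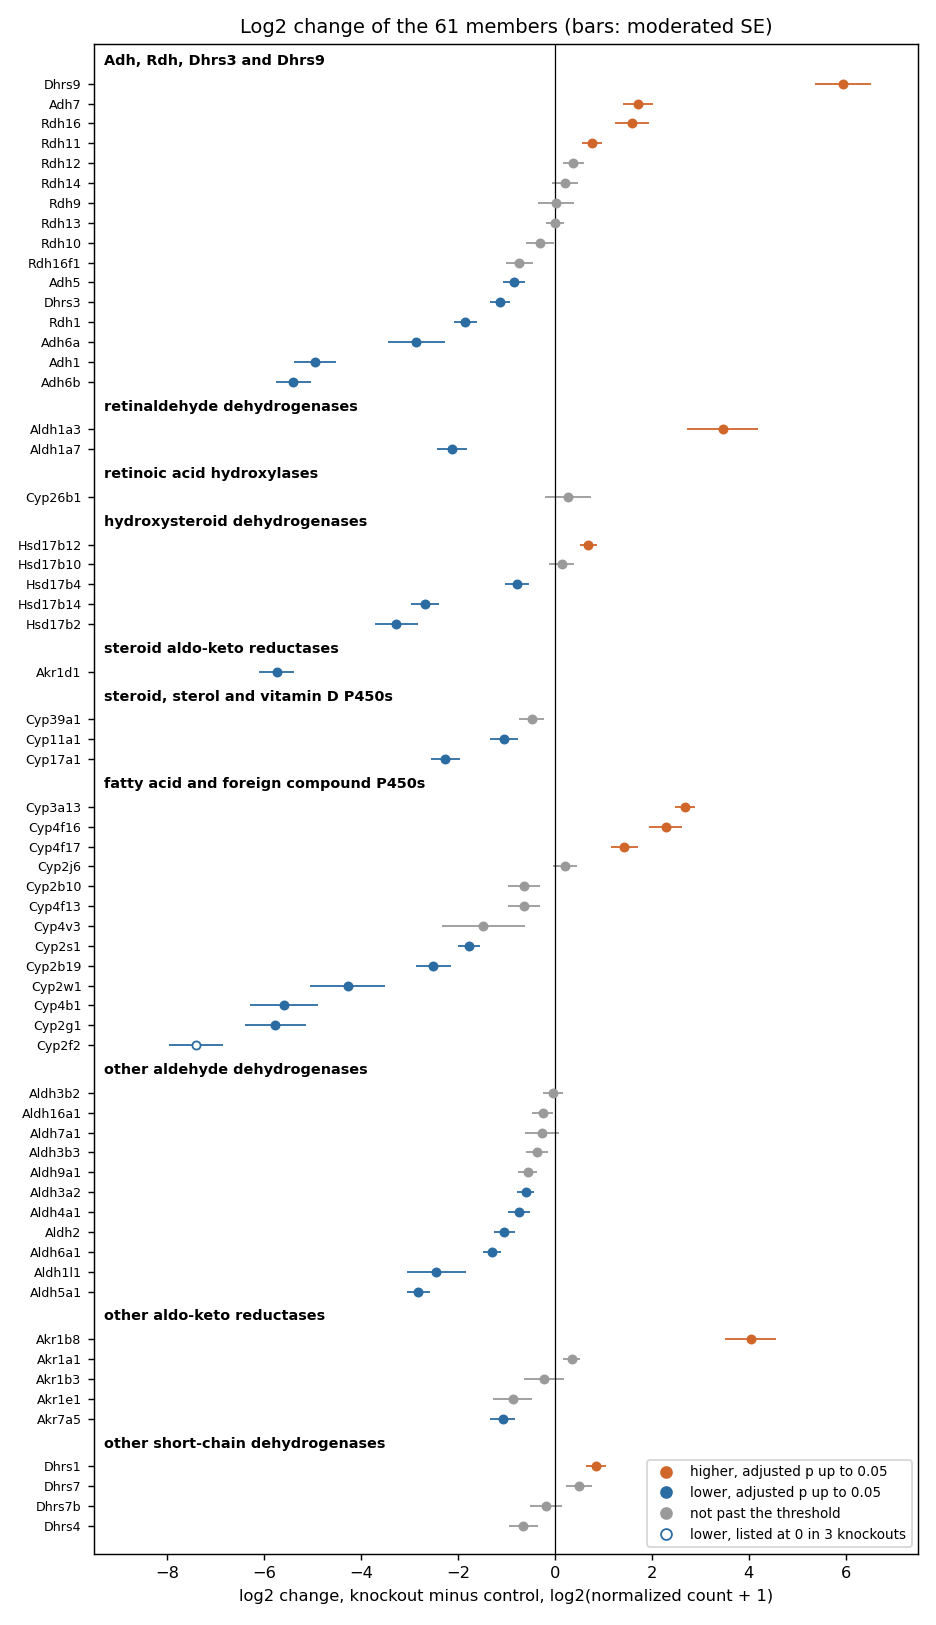
Log2 change of each of the 61 members, knockout minus control, on the log2(normalized count + 1) scale, grouped by role. Points are estimates from 3 against 3 libraries and bars are moderated SEs, with colour for the 11 members past the threshold upward and the 26 downward; the open point (Cyp2f2) was listed at 0 in every knockout, so its position depends on the added 1.

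The plot of all members by role shows that both directions occurred within the retinoid, hydroxysteroid, P450 and aldo-keto groups. By contrast, all 6 called members among the 11 other aldehyde dehydrogenases lay to the left of 0.

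Markers of several cell types also differed between the groups, and their part in the changes below was not tested. The counts below stand beside 33.6% of all genes called, 17.7% higher and 15.9% lower. Of 8 sebocyte markers, 4 were in the table: Awat1 (−4.85 ± 0.65, log2 ± SE), Scd3 (−3.45 ± 0.85) and Krt79 (−0.77 ± 0.25) were lower and Cidea (2.90 ± 0.51) was higher. Awat1 had 74.8, 42.5 and 55.6 in controls and 1.87, 1.70 and 0 in knockouts. The summed level of the 4 was 1844 to 1987 normalized counts in the controls and 745 to 1468 in knockouts. All 6 melanocyte markers were higher (summed 387 to 535 against 2748 to 4449), as were 3 of 4 dermal fibroblast markers measured (summed 137 to 391 against 440 to 516). Of 7 hair follicle markers measured 2 were higher and 0 lower. Of 6 basal keratinocyte markers Krt14 was higher (3.21 ± 0.61) and Krt15 lower (−6.84 ± 0.76), and of 6 suprabasal markers 0 were called. With animals of adjacent number as a block, the basal markers Krt5, Trp63, Col17a1 and Itga6 were lower as well (−0.59 to −1.03, adjusted p 0.00148 to 0.0374), as was the suprabasal Dsg1a (−0.67, adjusted p = 0.016), and the hair follicle Krt25 was higher (1.53, adjusted p = 0.0418). The fit with this block called 2952 of all genes higher and 2829 lower, where the fit without it gave 2279 and 2049. Of 4 leukocyte markers measured Lyz2 was higher and Cd3e lower in the fit without a block. Erythroid, neutrophil and endothelial markers were not called but were highest in knockout 2. The erythroid Hbb-bs had 9.82, 80.1 and 42.2 in controls and 0.935, 486 and 7.76 in knockouts. The neutrophil Csf3r had 6.04, 4.43 and 1.63 in controls and 0.935, 158 and 17.7 in knockouts. The endothelial Pecam1 had 3.78, 2.66 and 5.72 in controls and 6.54, 59.5 and 11.1 in knockouts. In whole epidermis, fewer cells of a type and less RNA per cell cannot be told apart.

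Among the 16 Adh, Rdh, Dhrs3 and Dhrs9 enzymes, 4 were higher, 6 were lower and 6 were not called, with a median log2 change of −0.15. The called share was 62.5%, beside 33.6% of all genes, of which 17.7% were higher and 15.9% lower. The strongest losses were in the alcohol dehydrogenases of chromosome 3. Adh1, the class I alcohol dehydrogenase that oxidises ethanol and retinol, had 1602, 2590.1 and 2291 normalized counts in controls and 53.3, 40.8 and 144 in knockouts. Every control lay far above every knockout, and the log2 change was −4.94 ± 0.43 (SE, adjusted p = 0.000201). Adh6b, a less studied member of the same cluster, had 309.6, 329 and 493 in controls and 7.48, 5.10 and 12.2 in knockouts. It too separated the groups fully, with a change of −5.39 ± 0.35 (adjusted p = 6.52e-05), and its neighbour Adh6a changed by −2.86 ± 0.59 from 40.8, 47.8 and 38.4 to 1.87, 5.10 and 11.1 (adjusted p = 0.00814). Adh5, the class III enzyme that clears formaldehyde and S-nitrosoglutathione, was lower by less (−0.85 ± 0.23, adjusted p = 0.0234). That call was lost without any of controls 1 to 3, knockout 1 or knockout 2 (adjusted p 0.0513 to 0.0872).

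Adh7, the class IV enzyme known for its activity on retinol in stratified epithelia, went the other way. It had 39.3, 43.4 and 22.9 normalized counts in the controls and 92.5, 119 and 134 in the knockouts. The lowest knockout lay above the highest control, and the change was 1.72 ± 0.32 (adjusted p = 0.00496). With knockout 1 as the sole knockout it was 1.42 and was not past the threshold (adjusted p = 0.0958).

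Dhrs9, a short-chain dehydrogenase of epithelia that oxidises retinol and hydroxysteroids, showed the largest rise of all members. It had 15.9, 5.31 and 3.27 in controls and 637, 714 and 232 in knockouts. Controls 2 and 3 held a few reads only, since 3 reads are worth 2.27 to 2.66 normalized counts in the controls. All 3 knockouts lay far above control 1, the highest control, and the change was 5.95 ± 0.58 (adjusted p = 0.000332). Dhrs3, which mainly reduces retinal back to retinol, had 424, 421 and 489 in controls and 181, 182 and 249 in knockouts. It was lower in each knockout than in any control (−1.13 ± 0.20, adjusted p = 0.0041), so the pair of Dhrs enzymes of this group moved in opposite directions.

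Among the Rdh enzymes, Rdh1, an all-trans-retinol dehydrogenase, had 741, 583 and 896 in controls and 162, 194 and 263 in knockouts. The groups did not overlap, and the change was −1.84 ± 0.24 (adjusted p = 0.00116). Its neighbour Rdh16 was higher (1.60 ± 0.35, adjusted p = 0.0103), from 27.4, 19.6 and 22.2 to 52.7, 107 and 63.7, though not with knockout 1 as the sole knockout (adjusted p = 0.106). Rdh11, a retinal reductase that prefers NADPH, was modestly higher (0.77 ± 0.20, adjusted p = 0.0208). This call was lost without control 1, control 3 or knockout 2 (adjusted p 0.0512 to 0.081) and with totals set equal (adjusted p = 0.0873).

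The other 6 Rdh genes were not called. Rdh10, the enzyme that carries most retinol oxidation in the embryo, had a log2 difference of −0.30 ± 0.29, with a 95% interval of −0.97 to 0.37. Rdh12, a relative of Rdh11 that also reduces retinal, was at 0.39 ± 0.21 (−0.10 to 0.87), Rdh14 at 0.21 ± 0.27 and the mitochondrial Rdh13 at 0.00 ± 0.19 (−0.43 to 0.44). Rdh9 was at 0.03 ± 0.38. Rdh16f1 had 927, 1108 and 1359 in controls and 526, 558 and 1043 in knockouts, with knockout 3 inside the control range. Its difference was −0.73 ± 0.28 (adjusted p = 0.0784). It passed the threshold with animals of adjacent number as a block (adjusted p = 0.0108) and without knockout 3 (adjusted p = 0.00853). It also passed with library totals set equal (adjusted p = 0.0317) and with quantile normalization (adjusted p = 0.0314). With knockout 1 as the sole knockout the difference was −1.085. Reads of this family are hard to assign: 100% of the 50-base stretches of Rdh16f1 and 68.3% of those of Rdh9 also occur in transcripts of other genes, as do 15.6% for Rdh1 and 14.0% for Rdh16.

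**Figure D2:**
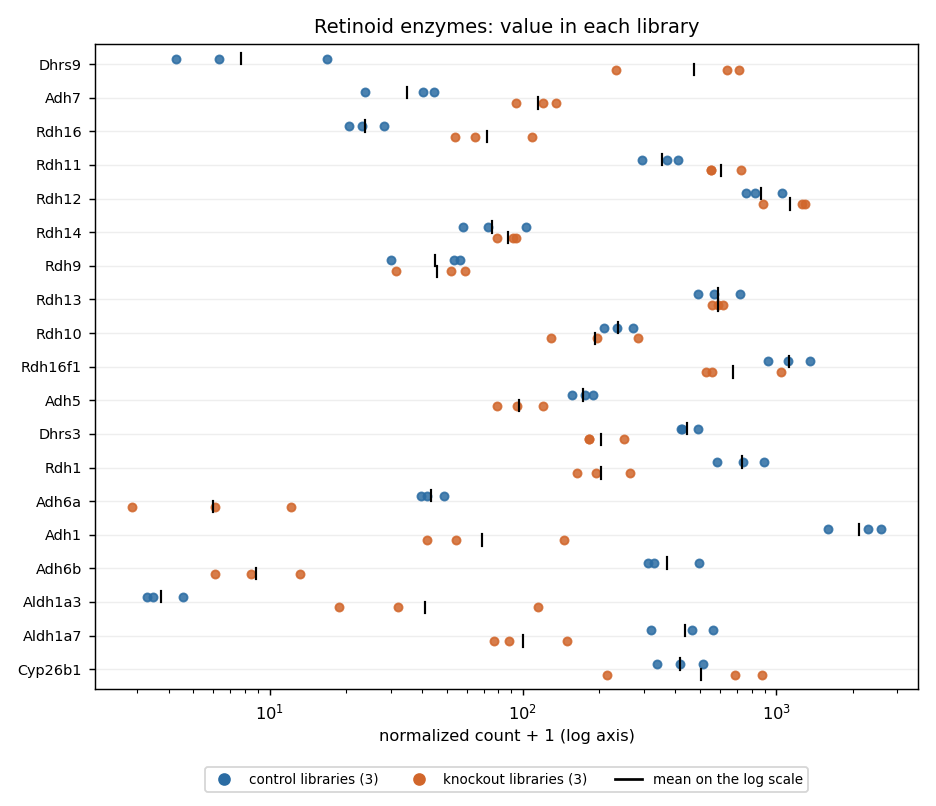
Normalized count + 1 in each library (log axis) for the 16 Adh, Rdh, Dhrs3 and Dhrs9 enzymes, Aldh1a3, Aldh1a7 and Cyp26b1. Blue points are the 3 controls, orange points the 3 libraries labelled knockout and black ticks their means on the log scale; Dhrs9 and Adh6b show the widest gaps between groups, and Rdh13 and Cyp26b1 overlap.

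The plot of retinoid enzymes by library also shows where the libraries of a group disagreed. For Dhrs9 the lowest knockout was knockout 3, and for Aldh1a3 the highest was knockout 2.

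Levels were compared between genes only per kilobase of merged exons. On this scale Adh1 was the most abundant of the 16 in the controls, with a mean of 968 normalized counts per kb, ahead of Rdh16f1 (409, uncertain for its shared sequence) and Rdh12 (295). In the libraries labelled knockout Rdh12 came first (387), followed by Rdh16f1 (256), Rdh11 (176) and Dhrs9 (123), while Adh1 stood at 35.6, in place 10 of 16. Dhrs9 had been last in the controls, at 1.90. The 5 Adh genes summed to 845, 1293 and 1181 per kb in controls 1 to 3 and to 67.9, 67.3 and 129 in knockouts. They held 41.2% to 49.4% of the summed level of the 16 genes in the controls and 4.66% to 8.64% in knockouts. The 9 Rdh genes summed to 1055 to 1396 per kb in controls and 909 to 1224 in knockouts, ranges that overlap. The pair Dhrs3 and Dhrs9 summed to 145 to 168 per kb in controls and 139 to 229 in knockouts, since the gain of Dhrs9 and the loss of Dhrs3 ran against each other. All 16 together summed to 2049 to 2745 per kb in controls and 1188 to 1492 in knockouts, without overlap.

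**Figure D3:**
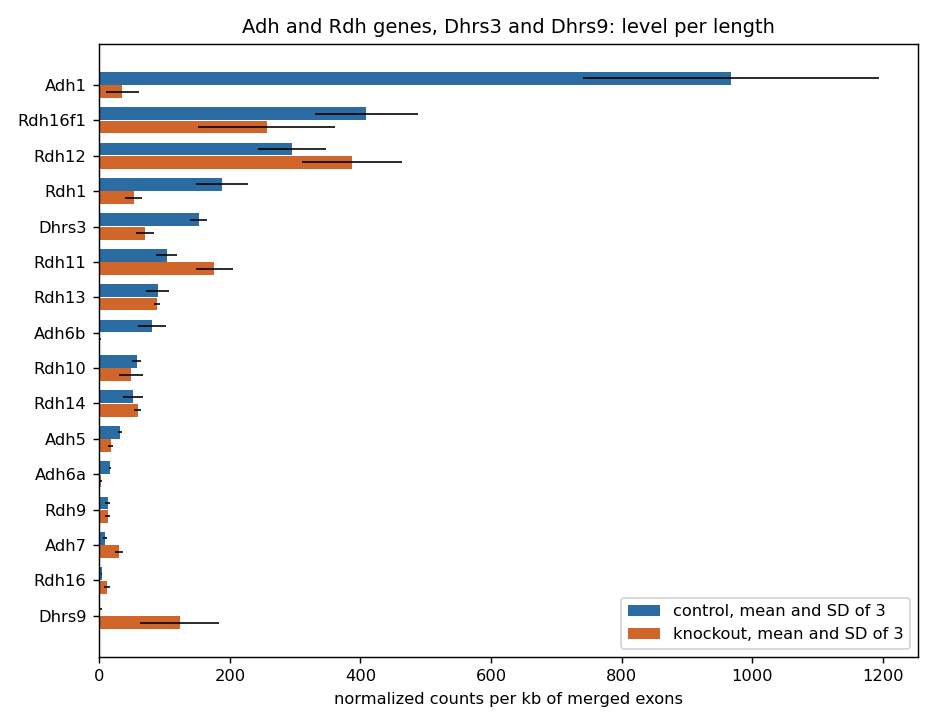
Level per length of the 16 Adh, Rdh, Dhrs3 and Dhrs9 enzymes, in normalized counts per kb of merged exons, ordered by the control mean. Bars are means and lines SDs of 3 controls (blue) and 3 libraries labelled knockout (orange); Adh1 has the longest control bar (968), and its knockout bar is 35.6.

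The plot of levels per length makes visible that the loss of Adh1 outweighs, in summed level, the gains of Dhrs9, Rdh11 and Adh7.

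To show the DNA before 3 of these genes, the 250 bases before the annotated start were taken from RefSeq (GRCm38.p6). They are those of the member that rose most (Dhrs9) and of 2 neighbours on chromosome 3 that went opposite ways (Adh7 and Adh1). Capitals mark matches on either strand to AGGTCA, the hexamer that retinoic acid and other nuclear receptors recognise, to GCGTG, the core of the dioxin response element, to TGACNNNGC, the core of the antioxidant response element, or to TGATGNAA, a core of the composite element bound by ATF4. The 3 stretches are chr2:69380212-69380461, chr3:138217523-138217772 and chr3:138277335-138277584, all on the plus strand.
Dhrs9: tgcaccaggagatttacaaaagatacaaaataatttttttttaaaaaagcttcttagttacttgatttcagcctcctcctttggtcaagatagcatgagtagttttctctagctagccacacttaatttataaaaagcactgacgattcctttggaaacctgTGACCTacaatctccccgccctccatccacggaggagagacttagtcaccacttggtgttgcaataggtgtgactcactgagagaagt
Adh7: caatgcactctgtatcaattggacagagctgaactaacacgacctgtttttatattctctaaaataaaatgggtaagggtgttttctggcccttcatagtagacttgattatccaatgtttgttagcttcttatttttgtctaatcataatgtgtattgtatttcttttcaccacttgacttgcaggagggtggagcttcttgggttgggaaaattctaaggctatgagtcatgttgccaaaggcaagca
Adh1: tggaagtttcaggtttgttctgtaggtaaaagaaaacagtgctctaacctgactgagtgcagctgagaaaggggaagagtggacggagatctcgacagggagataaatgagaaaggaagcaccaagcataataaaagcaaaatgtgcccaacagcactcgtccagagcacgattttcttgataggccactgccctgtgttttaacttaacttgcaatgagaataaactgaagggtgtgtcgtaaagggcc
Dhrs9 has 1 hexamer, read on the minus strand as TGACCT, and the stretches of Adh7 and Adh1 have no match to any of the 4 motifs. The longer Adh7 window counted below, which runs on past the start, has 1 match to GCGTG. A match is a description of letters and not of a bound site.

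Windows from 250 bases before to 50 after the start were found for 45 of the 61 members (51 windows). AGGTCA occurred in 11 of the 51 (21.6%), beside 16.3% of all 32851 windows of the table. It was in 3 of 10 windows of members that were higher, 7 of 24 of members that were lower and 1 of 17 of members not called. GCGTG occurred in 37.3% of member windows and 32.4% of all, TGACNNNGC in 9.80% and 12.4%, and TGATGNAA in 0 of 51 and 3.97%. GCGTG matches were in 5 of 10 windows of higher, 6 of 24 of lower and 8 of 17 of uncalled members.

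Neighbouring genes of a family did not all move together. In the RefSeq gene order of GRCm38, the members on chromosome 3 lie in the order Adh7, Adh1, Adh6a, Adh6b, Adh5, with Adh4 as the only other coding gene between them. The first was higher and the next 4 were lower. On chromosome 10 Rdh1, Rdh9 and Rdh16 follow each other in this annotation, and these were lower, not called and higher. Rdh16f1 had no match in RefSeq and was not placed. On chromosome 17 Cyp4f17 (1.44 ± 0.27) and Cyp4f16 (2.29 ± 0.33) were higher and Cyp4f13 (−0.64 ± 0.33) was not called. The 5 Cyp2 members of chromosome 7 included 4 that were lower and Cyp2b10, which was not called. Other coding genes lie between the members there (12) and in the Cyp4f cluster (8). On chromosome 6 Akr1b8 was higher beside Akr1b3, which was not called.

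**Figure D4:**
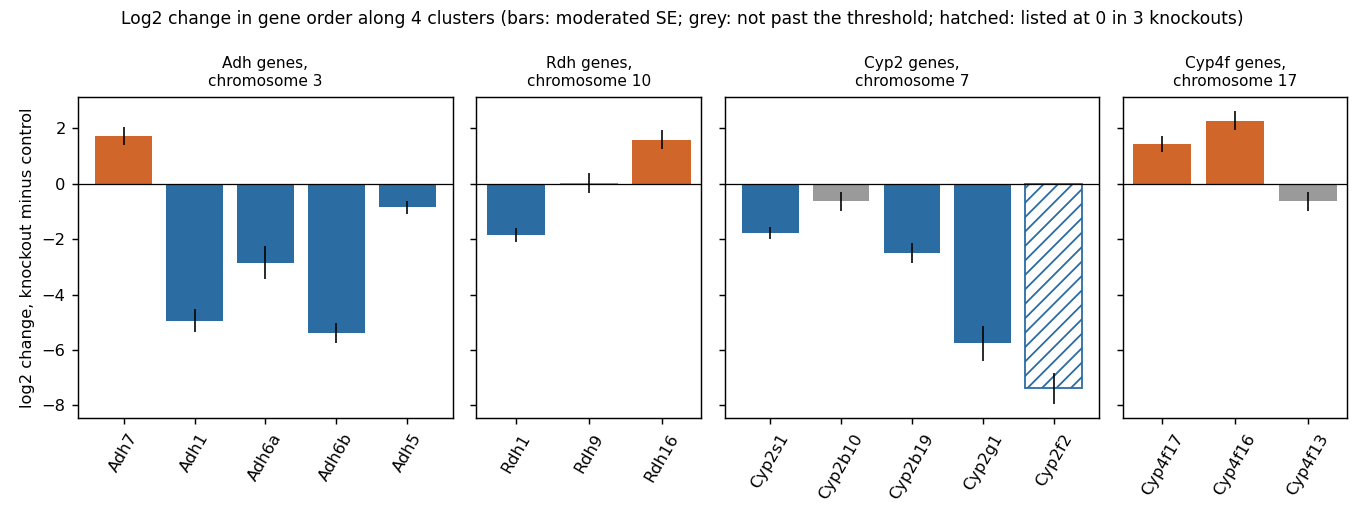
Log2 change, knockout minus control, of members in their order along 4 gene clusters. Rdh16f1 was not placed and is not shown. Bars are estimates from 3 against 3 libraries with moderated SEs, coloured where past the threshold (orange higher, blue lower); the hatched bar (Cyp2f2) was listed at 0 in every knockout, so its length depends on the added 1, and Adh7 and Rdh16 point up in clusters where other members point down.

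The plot of clusters shows opposite calls within the Adh and Rdh clusters, and calls in 1 direction within the Cyp2 and Cyp4f clusters.

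Both Aldh1a members changed, in opposite directions. Aldh1a3, which makes retinoic acid from retinaldehyde in epithelia, had 2.27, 3.54 and 2.45 normalized counts in controls and 17.8, 114 and 31.0 in knockouts. The controls lay at about the value of 3 reads and the knockouts spread widely, with knockout 2 the highest. Knockout 2 was also highest in erythroid, neutrophil and endothelial markers, whose part was not tested. The change was 3.47 ± 0.73 (adjusted p = 0.00865), and without knockout 2 it was 2.72 (adjusted p = 0.0207). Aldh1a7, a rodent relative of Aldh1a1, had 319, 465 and 562 in controls and 75.7, 86.8 and 149 in knockouts. No knockout reached the lowest control, and the change was −2.13 ± 0.31 (adjusted p = 0.00189). Aldh1a7 is grouped here by its name, and its action on retinaldehyde was not measured. Of its 50-base stretches, 7.49% also occur in Aldh1a1.

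Cyp26b1, which clears retinoic acid, had 416, 513 and 338 in controls and 876, 686 and 213 in knockouts. Knockouts 1 and 2 were above all controls and knockout 3 below them, and the difference was 0.27 ± 0.47, with an interval of −0.80 to 1.35 (adjusted p = 0.676). Without knockout 3 it was 0.89 and passed the threshold (adjusted p = 0.0231), and without knockout 1 it was −0.12.

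Carriers, receptors and response genes of the retinoid pathway gave a mixed picture. Of 22 carrier, receptor and esterification genes 10 were in the table, 4 higher and 2 lower (60%, beside 33.6% of all genes). Crabp2, which carries retinoic acid to the nucleus, went from 236, 372 and 330.2 to 682, 1786 and 885 (1.74 ± 0.35, adjusted p = 0.00711), a call lost with knockout 1 alone (1.15, adjusted p = 0.0547). Ppard, a fatty acid receptor that can also be reached by retinoic acid through Fabp5, was higher by 0.96 ± 0.18 (adjusted p = 0.00523). Rxra, the shared partner receptor, was lower, with 3506, 4482 and 4188 in controls and 1736, 1368 and 2293 in knockouts (−1.20 ± 0.22, adjusted p = 0.00496).

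Of 11 genes known to be raised by retinoic acid, 4 were in the table, and 1 was higher and 1 lower (50%, beside 33.6% of all genes). Tgm2, a transglutaminase, had 2.27, 2.91 and 0.817 in controls and 16.8, 241.6 and 16.6 in knockouts, with knockout 2 far above the rest. Knockout 2 was also highest in erythroid, neutrophil and endothelial markers, whose part was not tested. The change of Tgm2 was 3.89 ± 1.04 (adjusted p = 0.0218), and the call was lost without control 3 (adjusted p = 0.0638). With knockout 1 as the sole knockout it was 2.64. It was 2.64 without knockout 2 and 4.52 and 4.53 without knockouts 1 and 3. Rarres1, a retinoic acid receptor responder, was lower (−0.79 ± 0.19, adjusted p = 0.0141), a call lost without control 2 (adjusted p = 0.0654) and with knockout 1 alone (0.0554). Nrip1 was not called (0.59 ± 0.34).

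Of the 9 members named for steroids or sterols, 1 was higher, 6 were lower and 2 were not called. Of all genes 17.7% were higher and 15.9% lower. Akr1d1, which reduces the ring double bond of steroid hormones and of bile acid precursors, had 366, 308 and 349 normalized counts in the controls. In knockouts it had 2.80, 6.81 and 7.76, a few reads a library. The change was −5.74 ± 0.37 (adjusted p = 6.27e-05), the smallest adjusted p of the 61 members. The 250 bases before its start (RefSeq, GRCm38.p6, chr6:37529923-37530172, plus strand) are shown because they hold 2 copies of the nuclear receptor hexamer, in capitals, both read on the minus strand.
Akr1d1: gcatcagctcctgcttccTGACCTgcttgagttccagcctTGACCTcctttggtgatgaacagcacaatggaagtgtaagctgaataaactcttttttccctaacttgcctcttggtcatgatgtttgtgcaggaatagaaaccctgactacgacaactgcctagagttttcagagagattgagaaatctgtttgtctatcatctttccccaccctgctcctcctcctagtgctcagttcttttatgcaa

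The hydroxysteroid dehydrogenases that inactivate sex steroids were lower. Hsd17b2, which oxidises estradiol and testosterone to weaker forms, had 183, 226 and 306 in controls and 23.4, 11.9 and 44.4 in knockouts. The highest knockout was below the lowest control by a wide margin (−3.27 ± 0.44, adjusted p = 0.00133). Hsd17b14, a cytosolic enzyme that also oxidises estradiol, went from 149.5, 153 and 205 to 30.8, 18.7 and 27.7. Its change was −2.68 ± 0.29 (adjusted p = 0.000485).

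The members of this family with main roles in fatty acids had smaller log2 changes. Hsd17b12, which serves the elongation of very long-chain fatty acids, had 988, 1002 and 1015 in controls and 1372, 1991 and 1560.2 in knockouts. The controls were nearly equal and all knockouts lay above them (0.69 ± 0.18, adjusted p = 0.0208), but the call was lost without any 1 of the controls (adjusted p 0.0647 to 0.0704) and with totals set equal (adjusted p = 0.0848). Hsd17b4, the peroxisomal bifunctional enzyme, had 334, 407 and 431 in controls and 164, 228 and 307 in knockouts. It was lower (−0.78 ± 0.25, adjusted p = 0.0438), close to the threshold, and the call was lost without any control, knockout 1 or knockout 2 (adjusted p 0.0701 to 0.132). Hsd17b10, a mitochondrial member, was not called (0.14 ± 0.26, interval −0.44 to 0.72).

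Both P450s of steroid hormone synthesis were lower. Cyp17a1, which turns pregnenolone and progesterone into androgen precursors, had 139.7, 243 and 138 in controls and 33.6, 28.9 and 41.0 in knockouts. All knockouts lay below all controls (−2.26 ± 0.30, adjusted p = 0.00117). Cyp11a1, which cleaves the cholesterol side chain in the first step of synthesis, had 59.6, 70.8 and 96.5 in controls and 39.2, 30.6 and 36.6 in knockouts. Its change was −1.05 ± 0.29 (adjusted p = 0.0249), lost without control 2, control 3 or knockout 2 (adjusted p 0.0577 to 0.109). Cyp39a1, an oxysterol hydroxylase, was not called (−0.47 ± 0.26, interval −1.06 to 0.12).

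**Figure D5:**
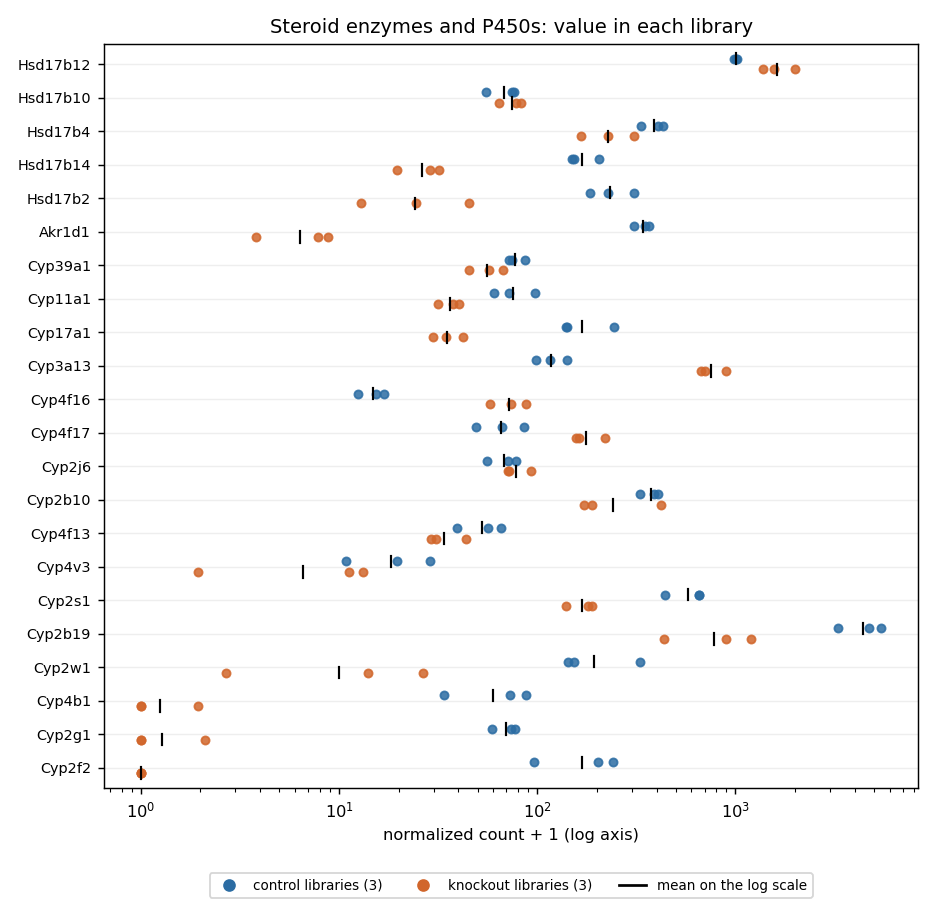
Normalized count + 1 in each library (log axis) for the 9 steroid and sterol members and the 13 P450s of fatty acids and foreign compounds. Blue points are the 3 controls, orange points the 3 libraries labelled knockout and black ticks their means on the log scale; Akr1d1, Cyp4b1, Cyp2g1 and Cyp2f2 fall to a few reads or none in knockouts, and Cyp3a13 lies above all controls in all 3.

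The plot of steroid enzymes and P450s by library shows the widest gaps downward for Cyp2f2, Cyp2g1, Akr1d1 and Cyp4b1. Cyp2b19, the most abundant of these genes per kb in the controls, kept 434 to 1193 normalized counts in knockouts.

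Of 16 genes for steroid receptors, reductases, sulfatase and sulfotransferases, 10 were in the table, 0 higher and 3 lower (30.0%, beside 33.6% of all genes). H6pd, which supplies NADPH to steroid reduction inside the endoplasmic reticulum, had 362, 479 and 619 in controls and 72.9, 133 and 74.3 in knockouts. All knockouts were below all controls (−2.39 ± 0.30, adjusted p = 0.000946). Pgr, the progesterone receptor, went from 21.9, 33.6 and 122 to 2.80, 0 and 1.11, at or below the value of 3 reads (−4.52 ± 0.85, adjusted p = 0.00531). Without control 3 the change was −3.82 (adjusted p = 0.0405), and with knockout 1 alone the call was lost (adjusted p = 0.0592). Srd5a1, a steroid reductase that activates testosterone, was lower (−1.05 ± 0.23, adjusted p = 0.0097), a call lost with knockout 1 alone (adjusted p = 0.0553). The receptors for glucocorticoid (Nr3c1, −0.08 ± 0.20) and vitamin D (Vdr, 0.72 ± 0.40) were not called. With animals of adjacent number as a block Vdr was higher (0.72 ± 0.17, adjusted p = 0.0119).

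Of 10 genes known to be raised by glucocorticoid, all were measured, and 1 was higher and 1 lower (20%, beside 33.6% of all genes). Fkbp5, a chaperone of the steroid receptors, had 915, 2080.1 and 1561 in controls and 449.5, 286 and 379 in knockouts. The groups did not overlap (−1.97 ± 0.31, adjusted p = 0.00249), but the call was lost with knockout 1 alone (adjusted p = 0.0592). Dusp1, a kinase phosphatase, was higher by 0.82 ± 0.26 (adjusted p = 0.0404), and this call was lost without any 1 control, knockout 2 or knockout 3 (adjusted p 0.0779 to 0.128), with knockout 1 alone (0.443), without the mean-variance trend (0.0765) and with totals set equal (0.119) or quantile normalization (0.275). With animals of adjacent number as a block 5 of the 10 were higher: Dusp1, Per1, Errfi1 and the metallothioneins Mt1 and Mt2. The block fit called more genes in general. Of all 12872 genes it gave 2952 higher and 2829 lower, where the fit without a block gave 2279 and 2049.

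Among the 13 P450s of fatty acids and foreign compounds, 3 were higher, 6 lower and 4 not called, with a median log2 change of −1.47. Of the 13, 69.2% were called, beside 33.6% of all genes. Cyp2b19, an epoxygenase of arachidonic acid that is specific to keratinocytes, was the most abundant of them per kb in the controls. It had 3312, 4739 and 5456 normalized counts in controls and 898, 434 and 1193 in knockouts. The groups were far apart (−2.51 ± 0.36, adjusted p = 0.00177). Cyp2s1, an epithelial P450 known to act on retinoic acid and on products of arachidonic acid, had 442, 654 and 655 in controls and 139, 187 and 179.6 in knockouts (−1.77 ± 0.23, adjusted p = 0.00101).

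A set of P450s best known from airway and nose was measured in all controls and had 1 read or none in each library of the other group. Cyp2f2, which activates naphthalene in airway cells, had 95.1, 203 and 241.1 in the controls and was listed at 0 in all 3 knockouts (adjusted p = 0.000108). No fold is given for it. Cyp2g1, a P450 of olfactory mucosa, had 58.1, 76.2 and 72.8 in controls and 0, 0 and 1.11 in knockouts. Its knockout values amount to 1 read in 1 library, and the change of −5.76 ± 0.63 (adjusted p = 0.000544) depends on the added 1. Cyp4b1, which hydroxylates fatty acids and activates plant toxins, had 86.8, 71.7 and 32.7 in controls and 0.935, 0 and 0 in knockouts. It too was at 1 read or none in knockouts (−5.59 ± 0.71, adjusted p = 0.000974).

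Since Cyp2f2 was the member at 0 in a whole group, the 250 bases before its start are shown (RefSeq, GRCm38.p6, chr7:27119705-27119954, plus strand), with 1 nuclear receptor hexamer in capitals.
Cyp2f2: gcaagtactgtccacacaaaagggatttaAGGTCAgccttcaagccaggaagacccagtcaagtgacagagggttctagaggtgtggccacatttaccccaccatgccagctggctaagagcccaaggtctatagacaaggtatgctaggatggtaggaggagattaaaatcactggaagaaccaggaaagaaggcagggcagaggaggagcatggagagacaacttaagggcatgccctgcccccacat
Without Cyp2f2 the members' median log2 change was −0.62, with 25 of 60 lower. Cyp2w1 was lower as well, from 143, 152 and 330.2 to 13.1, 1.70 and 25.5 (−4.27 ± 0.77, adjusted p = 0.00453), with −3.33 without knockout 2 and −4.98 without knockout 3. The 7 Cyp2 genes summed to 1264 to 2011 normalized counts per kb in controls and 361 to 447 in knockouts, without overlap.

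Cyp3a13, a member of the main family of drug-metabolising P450s, was the strongest rise of this group. It had 115, 139.9 and 97.3 in controls and 670.0, 895 and 705 in knockouts. Values within each group were close together, and the change was 2.68 ± 0.21 (adjusted p = 0.000127). Cyp4f16 and Cyp4f17, of a family that hydroxylates fatty acids at their far end, were higher by 2.29 ± 0.33 and 1.44 ± 0.27 (adjusted p = 0.00187 and 0.00573). For Cyp4f16, 17.4% of 50-base stretches also occur in other genes. With knockout 1 as the sole knockout, Cyp4f17 was at 1.25 and not past the threshold (adjusted p = 0.0851).

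The P450s not called were Cyp2b10 (−0.64 ± 0.33), Cyp4f13 (−0.64 ± 0.33), Cyp4v3 (−1.47 ± 0.85) and Cyp2j6 (0.21 ± 0.25). In Cyp2b10 knockout 2, at 422 normalized counts, lay above the controls and knockouts 1 and 3, at 189 and 172, below them. Without knockout 2 its difference was −1.04 and passed the threshold (adjusted p = 0.00867). Cyp4v3 was at −0.59 without knockout 1, and at −3.24 and past the threshold with knockout 1 alone (adjusted p = 0.0344). All 17 P450 members together summed to 1536 to 2262 per kb in controls and 841 to 941 in knockouts.

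P450s need electrons from partner proteins. Of 10 such partners 9 were measured, 2 higher and 1 lower (33.3%, beside 33.6% of all genes). Por, the reductase that serves the microsomal P450s, had 564, 1374 and 1020.1 in controls and 2008, 3309 and 1921 in knockouts. The groups did not overlap (1.34 ± 0.34, adjusted p = 0.0191), but the call was lost without control 1 (adjusted p = 0.0516) or knockout 2 (0.0551) and with knockout 1 alone (0.168). Cyb5r1, a cytochrome b5 reductase, went from 49.8, 42.5 and 50.7 to 662, 900.0 and 400.3 (3.68 ± 0.30, adjusted p = 0.00014). Pgrmc2, a haem-binding partner, was lower (−0.69 ± 0.17, adjusted p = 0.0156), a call lost without control 2 or control 3 (adjusted p 0.072 and 0.0613) and with knockout 1 alone (0.054). With animals of adjacent number as a block Cyb5a was lower too (−0.59 ± 0.20, adjusted p = 0.0452) and Pgrmc1 higher (0.58 ± 0.16, adjusted p = 0.0233). The ferredoxin Fdx1 and its reductase Fdxr, which serve Cyp11a1 in mitochondria, were not called (−0.07 ± 0.30 and −0.39 ± 0.48).

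The other aldehyde dehydrogenases moved in 1 direction where they moved. Of 11, 6 were lower, 0 higher and 5 not called, where 15.9% of all genes were lower and 17.7% higher. Aldh5a1, which oxidises succinic semialdehyde in the breakdown of GABA, had 366, 263 and 315 normalized counts in controls and 53.9, 35.4 and 43.0 in knockouts. No value of 1 group came near the other (−2.81 ± 0.24, adjusted p = 0.000196). Aldh2, the mitochondrial enzyme for acetaldehyde and lipid aldehydes, had 804, 862 and 783 in controls and 299, 395 and 527 in knockouts. It was lower in every knockout (−1.04 ± 0.22, adjusted p = 0.00941). Aldh6a1, of valine and thymine breakdown, had 279, 298 and 288 in controls and 107, 109 and 137 in knockouts, again without overlap (−1.29 ± 0.19, adjusted p = 0.00205).

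The remaining calls of this group rested on fewer reads or smaller differences. Aldh1l1, which oxidises formyltetrahydrofolate, had 36.2, 31.9 and 28.6 in controls and 7.48, 1.70 and 8.87 in knockouts. Its change was −2.44 ± 0.61 (adjusted p = 0.0174), −1.86 without knockout 2, and the call was lost without any 1 control (adjusted p 0.0555 to 0.0669). Aldh3a2, the fatty aldehyde dehydrogenase whose loss in people causes ichthyosis, had 368, 376 and 378 in controls and 247, 274 and 222 in knockouts. All knockouts were below the controls (−0.60 ± 0.17, adjusted p = 0.0297), a call lost without any 1 control, knockout 1 or knockout 3 (adjusted p 0.0561 to 0.0949). Aldh4a1, of proline breakdown, had 458, 501 and 497 in controls and 350.1, 323 and 215 in knockouts. It was lower (−0.74 ± 0.22, adjusted p = 0.0321), lost without any 1 control or knockout 3 (adjusted p 0.0587 to 0.0996), and 30.0% of its 50-base stretches also occur in other genes.

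Aldh3b2, a membrane-bound fatty aldehyde dehydrogenase, had the highest control mean per kb of these 11, with 1473, 1533 and 1926 in controls and 1340.3, 1982 and 1496 in knockouts. The groups overlapped, and the difference was −0.04 ± 0.20 (interval −0.51 to 0.42). Its neighbour Aldh3b3 was not called (−0.37 ± 0.22), nor were Aldh9a1 (−0.55 ± 0.20, adjusted p = 0.0589), Aldh16a1 (−0.25 ± 0.21) and Aldh7a1 (−0.26 ± 0.36). Of the 50-base stretches of Aldh3b2 and Aldh3b3, 24.2% and 12.8% also occur in other genes. All 13 Aldh members summed to 1534 to 1916 normalized counts per kb in controls and 1058 to 1415 in knockouts.

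Among the 5 other aldo-keto reductases 1 was higher, 1 lower and 3 not called (40% called, beside 33.6% of all genes). Akr1b8, an aldose reductase-like enzyme that reduces lipid aldehydes, had 7.55, 5.31 and 1.63 normalized counts in controls and 99.99, 91.9 and 66.5 in knockouts. Each knockout had many times the value of any control (4.04 ± 0.52, adjusted p = 0.00104). Akr7a5, which reduces aflatoxin and succinic aldehydes, had 74.8, 91.2 and 80.9 in controls and 36.4, 35.7 and 43.2 in knockouts. It was lower (−1.08 ± 0.25, adjusted p = 0.0129), a call lost without control 2 or control 3 (adjusted p 0.0646 and 0.05001).

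Akr1a1, the aldehyde reductase with the highest control mean per kb of the 5, had 900.0, 1044 and 1008 in controls and 1102, 1414 and 1246 in knockouts. Although all knockouts lay above the controls, the difference of 0.34 ± 0.17 was not past the threshold (adjusted p = 0.146). Akr1b3, the aldose reductase next to Akr1b8, was at −0.22 ± 0.41, and Akr1e1 at −0.87 ± 0.40, or at −1.21 without knockout 3 (adjusted p = 0.0416). The 6 Akr members, Akr1d1 included, summed to 519 to 557 normalized counts per kb in controls and 498 to 605 in knockouts, so the ranges overlapped.

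Of the 4 other short-chain dehydrogenases, Dhrs1, a short-chain dehydrogenase of the endoplasmic reticulum, was higher. It had 441, 551 and 529.7 in controls and 731, 1148 and 900.4 in knockouts. The groups did not overlap (0.85 ± 0.21, adjusted p = 0.0163), and the call was lost without control 1 (adjusted p = 0.0657). Dhrs4, Dhrs7 and Dhrs7b were not called, at −0.65 ± 0.30, 0.50 ± 0.26 and −0.18 ± 0.34.

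Genes of the receptors and stress factors that are known to drive some of these enzymes were measured too. Of 14 genes for NRF2 and its targets 13 were in the table, 5 higher and 3 lower (61.5%, beside 33.6% of all genes). Hmox1, haem oxygenase, had 403, 459 and 479 in controls and 2405, 3437 and 2639 in knockouts. Every knockout lay far above the controls (2.65 ± 0.19, adjusted p = 9.61e-05). Slc7a11, a cystine importer, was higher by 3.88 ± 0.35 (adjusted p = 0.000222), Txnrd1, thioredoxin reductase, by 1.997 ± 0.29 (adjusted p = 0.00187), and Nfe2l2, which encodes NRF2, by 1.56 ± 0.23 (adjusted p = 0.00203). The 3 that were lower were Keap1 (−1.15 ± 0.23), which holds NRF2 back, and the pentose phosphate enzymes Pgd (−0.66 ± 0.20) and Tkt (−0.70 ± 0.16). The 5 not called were Gclc (−0.01 ± 0.27), Gclm (−0.33 ± 0.23), Gsr (−0.25 ± 0.48), G6pdx (0.46 ± 0.17) and Taldo1 (0.42 ± 0.23). With animals of adjacent number as a block G6pdx was higher (0.46 ± 0.15, adjusted p = 0.0366).

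Of 6 genes of the aryl hydrocarbon receptor 4 were measured, 2 higher and 0 lower (50%, beside 33.6% of all genes). Tiparp, a feedback gene of the receptor, had 414, 456 and 428 in controls and 1416, 3491 and 1368 in knockouts. It did not overlap between groups (2.13 ± 0.34, adjusted p = 0.00264). The receptor itself was not called (Ahr, −0.52 ± 0.22).

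Enzymes that take over the products, by conjugation or epoxide hydrolysis, were measured for 11 of 13 genes, 5 higher and 3 lower (72.7%, beside 33.6% of all genes). Ephx1, the microsomal epoxide hydrolase, had 52.1, 25.7 and 14.7 in controls and 399, 291 and 386 in knockouts. The groups were far apart (3.66 ± 0.41, adjusted p = 0.000612). Ugt1a1, a glucuronosyltransferase, was higher by 1.98 ± 0.18 (adjusted p = 0.000221), while Ugt1a6a was lower (−1.28 ± 0.29, adjusted p = 0.0116). Both belong to 1 locus whose transcripts share their later exons, so reads there cannot be told apart. Gstm1, a glutathione transferase, was lower (−1.64 ± 0.34, adjusted p = 0.00829).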

How the data were processed

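The deposited table holds normalized counts per gene, a signal without negative values, with 1 row for each of the 6 libraries and 12894 Ensembl gene IDs (12771 with a symbol). The submitters' processing notes name Partek 9.0.20.0202, TopHat2 2.1.0 and the build mm39 and give no role for any of them. No source used here gives the normalization method, the counting rule or strandedness, so genes that overlap on either strand cannot be told apart. Per the values deposited, 1 read is worth 0.755 to 1.70 normalized counts, and of values up to 20 reads 80.9 to 83.4% lay within 0.02 of a whole read. The other values were fractional, so no count test was run.

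Values were tested as log2(value + 1) for genes above 1 in at least 3 libraries (12872), with limma 3.58.1 in R 4.3.3 (lmFit, then eBayes with trend). P-values are two-sided and Benjamini-Hochberg adjusted over all tested genes, with a threshold of 0.05. Errors are moderated SEs and intervals are at 95%. Log2 changes are on the log2(value + 1) scale and understate those of low genes. The fit was checked on simulated data.

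The annotation at hand (GENCODE and RefSeq, GRCm38) is of another build than mm39. It gave symbols, gene order, merged exon lengths, transcript sequences for the 50-base search and the promoter windows, whose coordinates are of GRCm38.p6. Members and gene lists were chosen with earlier results of these data known. Values in every library are given, for each role, for up to 6 called members by smallest adjusted p and the member with the highest mean. Of each gene list up to 4 called genes by smallest adjusted p are named, and a few list genes are counted but not reported here by name. Uncalled members, Adh6a, Rdh16, Rdh16f1, Cyp2w1 and the list genes beyond these were named after their values were seen.

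By the titles, each control has a knockout with the next animal number (216 and 217, 241 and 242, 250 and 251). The correlation of deviations from the group means was 0.37, 0.23 and 0.36 in these pairs, against −0.28 to −0.07 otherwise. Deviations within a group sum to 0, so positive values in the pairs force negative ones elsewhere. The numbers were taken to pair the libraries for an alternative fit only. That fit uses the same values as the correlation, so its added calls do not test the pairing. The pairing comes from the data and no shared litter is stated. The fit with these pairs as a block was an alternative, as were other pseudocounts, filters and scalings and the leaving out of each library.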

Additional observations from a re-analysis of the deposited data

How the results depend on the processing

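No called member reversed under any of 16 alternatives, and 24 of 37 kept call and direction in the 15 other than control 1 as sole control. Of these 24, 7 kept it there too (Adh1, Adh6b, Akr1b8, Akr1d1, Aldh5a1, Cyp3a13 and Dhrs9). Leaving out 1 library at a time gave 8 to 12 members higher and 19 to 26 lower, and 1512 to 2342 of all genes higher and 1121 to 2167 lower. The fewest genes lower came without control 2 (1121), with 1172 without control 1 and 1132 without control 3, and the fewest higher without control 3 (1512). With knockout 1 as the sole knockout, 5 members were higher, and 1265 of all genes were higher and 1220 lower. With control 1 as the sole control, 3 members were higher and 4 lower, and 248 of all genes were higher and 53 lower. Calls lost with knockout 1 alone were those of Adh5, Adh7, Akr7a5, Aldh3a2, Aldh4a1, Cyp11a1, Cyp4f17, Dhrs1, Hsd17b12, Rdh11 and Rdh16. In both fits the lone library was assumed to vary like the other group. Setting library totals equal gave 1440 of all genes higher. With the pairs of animal numbers as replicate block, 11 members were higher and 27 lower (2952 and 2829 of all genes), and beyond Rdh16f1 no member's call changed. Pseudocounts of 0.5 and 5, no filter and a filter at 10 left the members at 11 higher and 26 lower. A pseudocount of 5 moved low genes by over 1.5-fold without ending a call, as in Cyp2g1 (−3.78), Cyp4b1 (−3.60), Dhrs9 (5.30), Aldh1a3 (2.57), Adh6a (−2.19), Akr1b8 (3.24) and Akr1d1 (−5.03). Without the mean-variance trend Hsd17b4 and Aldh4a1 lost their calls (adjusted p 0.0733 and 0.0584). The sign of 10 uncalled members changed under some alternative, and these have no direction here. Depth limits the low genes: 3 reads are worth 2.27 to 5.10 normalized counts, so members with a few reads in 1 group have a direction but no exact fold.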
